A study of Mus musculus with 40 samples.

Results

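The genes described here encode chains of antibody (Igha, Ighm, Igkc and Jchain), proteins of plasma cells (Mzb1 and Tnfrsf17) and the receptor that carries antibody across epithelium (Pigr). They were taken by name, and all 7 had a row among the 15958 genes in the table, with values in 40 RNA sequencing libraries. The libraries came from C57BL/6 wild-type male mice that were 8 weeks old when they had a sham operation or small bowel resection (SBR). The sham vehicle and SBR vehicle groups were gavaged with vehicle, and the SBR WUSTL0717 group received 30 mg/kg of WUSTL0717, a gut-restricted agonist of the liver X receptor, daily for 7 weeks from 3 weeks after surgery. Tissue was taken 10 weeks after surgery, and no group of sham mice on the drug was analysed here. The sample labels give the resected length as 50 to 60% and the study's methods as 75%, with the duodenum and the end of the ileum left in place. The duodenum and the post-anastomotic ileum, the stretch beyond the join, each gave 3 sham vehicle, 4 SBR vehicle and 4 SBR WUSTL0717 libraries. The liver gave 5, 8 and 5. A library is called here by its group and number, such as SBR vehicle 2.

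Plasma cells are the end stage of B cells and secrete antibody in large amounts. In the gut wall they make chiefly IgA, whose heavy chain is encoded by Igha and whose light chain is most often kappa, encoded by Igkc. The joining chain, from Jchain, links IgA into dimers and IgM into pentamers, and the polymeric immunoglobulin receptor, from Pigr, takes antibody with a joining chain up at the base of an epithelial cell and releases it into the lumen. Rodent liver also makes this receptor and uses it to pass IgA into bile. Mzb1 encodes a chaperone partner of the endoplasmic reticulum that helps antibody assemble, and Tnfrsf17 encodes BCMA, a receptor through which plasma cells receive survival signals. Ighm, the heavy chain of IgM, is on in B cells that have not switched class as well as in IgM plasma cells.

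In GRCm38 coordinates from GENCODE M21, Pigr lies at chr1:130826684-130852249 on the plus strand, Jchain at chr5:88519809-88527891 on the minus strand and Tnfrsf17 at chr16:11313812-11320074 on the plus strand. Igkc lies at chr6:70726435-70726966 on the plus strand. Igha (chr12:113254830-113260236) and Ighm (chr12:113418558-113422730) share the heavy chain locus on the minus strand. The values are of whole genes, so the positions are those of the gene bodies with their exons and introns, and the immunoglobulin rows are of constant gene segments. Promoters of 3 of the 7 genes were in the RefSeq table for GRCm38.p6. They are shown because Pigr is the member with a called change in both liver comparisons and because Jchain and Tnfrsf17 are the plasma cell genes with a promoter at hand. For Jchain and Tnfrsf17 the RefSeq start lies a few bases before the GENCODE start given above. Each promoter is the 250 bases before the RefSeq start of the gene, 5′ to 3′ on the gene's own strand, at chr1:130826434-130826683, chr5:88527898-88528147 and chr16:11313559-11313808, with motif matches in capitals.
Pigr: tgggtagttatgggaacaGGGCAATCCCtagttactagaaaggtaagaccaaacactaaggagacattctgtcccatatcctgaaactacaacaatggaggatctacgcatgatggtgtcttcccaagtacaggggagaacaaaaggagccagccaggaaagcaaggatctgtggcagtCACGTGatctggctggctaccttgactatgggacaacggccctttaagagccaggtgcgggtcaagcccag
Jchain: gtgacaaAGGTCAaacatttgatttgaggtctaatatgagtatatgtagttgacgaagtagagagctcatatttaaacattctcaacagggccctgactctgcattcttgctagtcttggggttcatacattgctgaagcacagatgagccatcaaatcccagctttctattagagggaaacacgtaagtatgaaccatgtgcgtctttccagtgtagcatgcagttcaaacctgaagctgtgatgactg
Tnfrsf17: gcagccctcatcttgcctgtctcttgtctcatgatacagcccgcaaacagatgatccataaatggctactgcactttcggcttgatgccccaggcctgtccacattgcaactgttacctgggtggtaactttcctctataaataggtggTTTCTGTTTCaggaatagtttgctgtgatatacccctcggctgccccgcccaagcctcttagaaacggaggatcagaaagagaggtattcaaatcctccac

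The capitals mark letters searched for on both strands, with no overlap between motifs. The Pigr promoter held CACGTG, the E-box that helix-loop-helix factors bind, at -71 to -66, and a match to the NF-kB pattern GGGANNNNCC on the other strand at -232 to -223. These motifs were in 6.02% and 17.63% of 32851 promoters of the same length. The Jchain promoter held AGGTCA, the core hexamer of nuclear receptors, at -243 to -238 (in 14.02% of promoters), and the Tnfrsf17 promoter held the interferon response pattern GAAANNGAAA on the other strand at -101 to -92 (in 2.98%). The direct repeat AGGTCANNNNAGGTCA, the element of the liver X receptor, was in 0.02% of all promoters and in none of these windows. The octamer ATGCAAAT of immunoglobulin promoters was in 1.6% and also in none. A match is a description of the letters, and its absence says only that these letters are not in this window.

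Levels are log2 TPM, the log2 of a gene's length-scaled share of the transcripts of a library, after a batch correction (ComBat) by the authors. Gut made up batch 1 and liver batch 2. A difference in level between them cannot be told apart from the batch, and levels were compared only within a batch. The correction also rescales each gene in each batch, so the size of a difference is that of the corrected values. Read depth is unknown because no counts came with the table; turned back from log2, the values summed to between 618191 and 863090 TPM per library. For each tissue the 3 groups were fitted together with limma, keeping genes whose mean was at least 1 log2 TPM. A gene is called where its Benjamini-Hochberg adjusted p over all genes tested is under 0.05, and exact two-sided permutation tests over the libraries are given beside it for some single genes. The tissues matched their labels: 5 duodenal marker genes averaged 4.93 or more in every duodenal library and 2.07 or less in every ileal one, and 3 ileal marker genes averaged at least 4.74 in the ileum and at most 0.10 in the duodenum. Exocrine pancreas markers (9 genes) spread from 1.70 to 7.35 among duodenal libraries and stood at 7.25 in liver SBR vehicle 7 against 2.20 to 2.41 in the other liver libraries. Hepatocyte markers stood at 10.13 in ileum SBR WUSTL0717 2 against 7.25 to 8.73 in the other ileal libraries. The libraries are of separate samples by their labels, and where separate mice are not stated the p-values measure the spread between samples. Fewer cells of a type and less RNA per cell cannot be told apart in these whole-tissue samples.

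**Figure D1:**
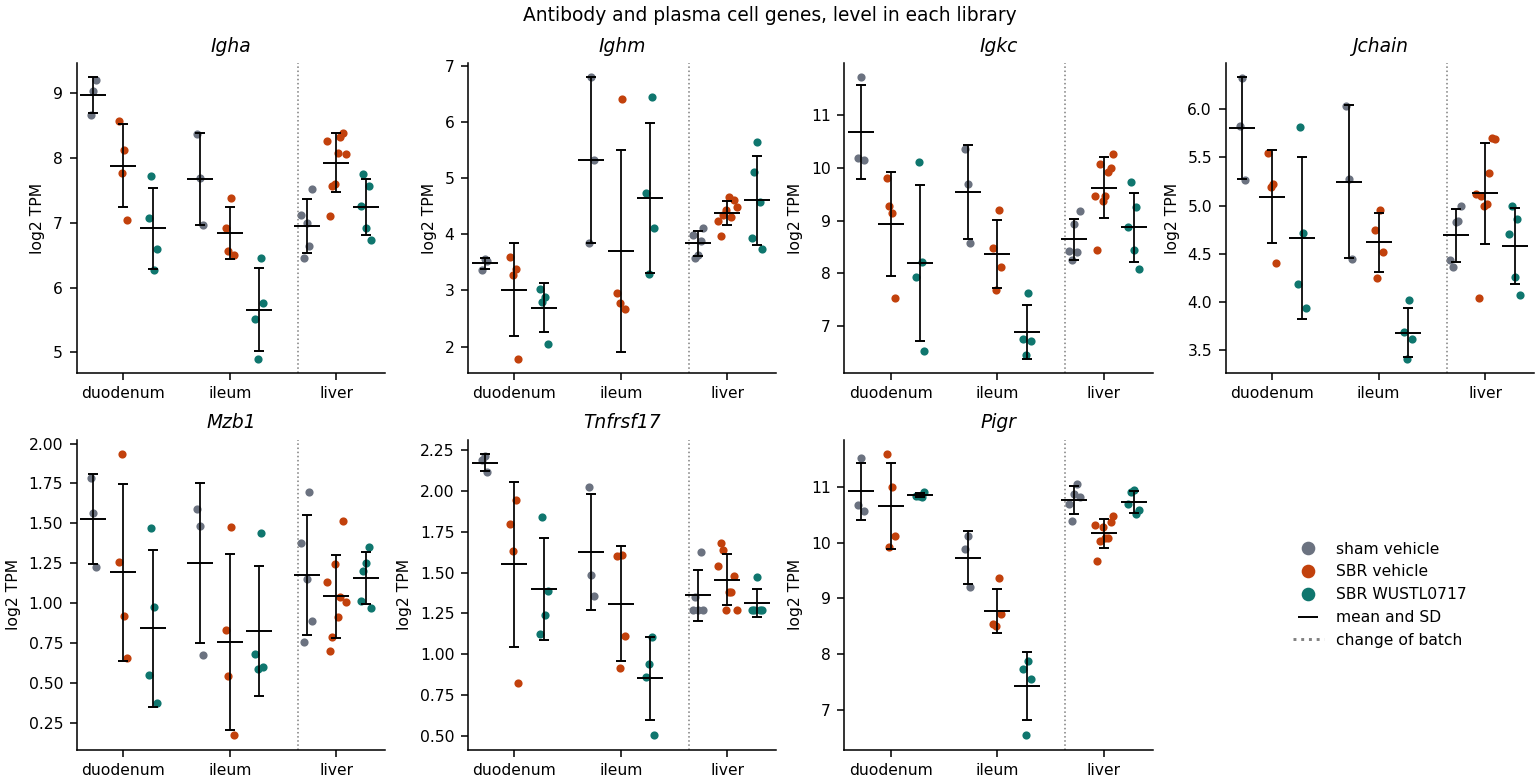
Level of each of the 7 genes (y axis, log2 TPM) in each library of the duodenum, ileum and liver (x axis), with points coloured by group, the group mean as a bar and the SD as whiskers; the dotted line separates batch 1 from batch 2, and each panel has its own y axis, which does not start at 0. Igha, Igkc, Jchain and Pigr in the ileum had their lowest values in SBR WUSTL0717 libraries, and liver Igha was highest in SBR vehicle libraries.

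After SBR, Igha and Igkc were higher in the liver and had lower mean values in both gut regions, where no member passed the adjusted threshold. In the liver, Igha rose 1.96-fold and Igkc 1.97-fold over sham, and Pigr fell 1.52-fold. With WUSTL0717 after SBR, liver Pigr rose 1.48-fold over SBR vehicle, whereas Igha, Igkc and Jchain had lower means without a call. In the ileum, the drug group held the lowest Pigr, Igha, Igkc and Jchain of all intestinal groups, and the drug and vehicle libraries did not overlap for these 4 genes, but none was called. The 2 comparisons within a tissue share the SBR vehicle libraries, so their values are not independent.

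Liver Igha was listed in the sham vehicle libraries at 7.13, 6.46, 7.00, 6.65 and 7.52, in the SBR vehicle libraries between 7.10 and 8.39 with a median of 8.08, and in the SBR WUSTL0717 libraries at 7.26, 7.75, 6.92, 7.56 and 6.73. All SBR vehicle libraries except SBR vehicle 2 were above every sham library. The change after SBR was 0.97 (SE 0.23, adjusted p = 0.00229, limma, exact permutation p = 0.00311) on the log2 scale. Igkc in the liver ranged from 8.26 to 9.17 with a median of 8.43 in sham, from 8.44 to 10.27 with a median of 9.69 in SBR vehicle and from 8.08 to 9.73 with a median of 8.88 in SBR WUSTL0717 libraries. The lowest SBR vehicle value was again SBR vehicle 2, and the others were all above sham. Its change after SBR was 0.98 (SE 0.29, limma adjusted p = 0.011, exact permutation p = 0.00855). After centring of the libraries on their medians, Igkc changed by 0.67 and was not called (limma adjusted p = 0.0503). The median change over all liver genes after SBR was 0.25, and relative to it Igha stood at 0.73 and Igkc at 0.74. Of all liver genes 41.9% were called in this comparison, against 3 of the 7 members, so a call alone does not set these genes apart.

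Jchain in the liver was listed at 4.44, 4.37, 4.83, 4.84 and 5.00 in sham and between 4.04 and 5.70 with a median of 5.11 in SBR vehicle libraries, and the change of 0.43 (SE 0.23) was not called (limma adjusted p = 0.133). Ighm ranged from 3.58 to 4.10 in sham and from 3.97 to 4.66 in SBR vehicle libraries, with a change of 0.54 (SE 0.24, limma adjusted p = 0.073, exact permutation p = 0.00233, 0.24 after centring). Jchain stood at 0.13 after centring. The hepatocyte marker mean of SBR vehicle 2 was 7.52 against 8.08 to 8.62 in the other SBR vehicle libraries. This library had the lowest Jchain, Ighm, Igha, Igkc, Mzb1 and Pigr of its group. Without it, Jchain (0.59, limma adjusted p = 0.00951) and Ighm (0.60, limma adjusted p = 0.0435) were also called higher after SBR, which makes 5 members called, in a fit where 56.7% of all genes were. The part of that library in these results beyond this was not tested. Mzb1 changed by -0.13 (SE 0.15, limma adjusted p = 0.513) and ranged from 0.70 to 1.69 over sham and SBR vehicle livers. After centring it stood at -0.44 and was called lower (limma adjusted p = 0.00914), the other way from Igha. Tnfrsf17 changed by 0.10 (SE 0.09, limma adjusted p = 0.436), and 9 of the 18 liver libraries shared its lowest value of 1.27, so its changes there rest on few libraries. In all, 4 of the 7 members had an unadjusted p under 0.05 in this comparison against 50.2% of all genes, and for none did the groups stay apart, against 17.2%.

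In the liver after SBR, 4 of 7 tested constant genes of antibody outside the members rose and none fell, with Iglc1, a lambda light chain, at 1.36 (SE 0.26, limma adjusted p = 0.000406), Ighg2c at 1.08 (SE 0.35), Ighg1 at 0.95 (SE 0.37) and Iglc2 at 0.67 (SE 0.23). The median change over the 7 was 0.89 against 0.25 over all genes. Of 168 variable and joining segments in the table, 152 had a higher mean, 22 rose and none fell, with a median of 0.32. Over all liver genes 37.4% were called higher, and the median was 0.25, so the segments' calls and median do not set them apart. Among the segments with the highest intestinal means, Ighj1 rose by 1.70 (SE 0.43, limma adjusted p = 0.00421) and Ighj4 by 1.37 (SE 0.45, limma adjusted p = 0.0211), while Ighj3 stood at 0.61 (SE 0.52, limma adjusted p = 0.357). Segments and constant genes of one family resemble each other closely, so reads may be split between them and single rows are uncertain.

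Of 17 plasma cell program genes tested in the liver, 6 rose and 1 fell after SBR, close to the shares of all liver genes (37.4% called higher and 41.9% called). Those that rose were led by Slamf7, a surface receptor of plasma cells and other leukocytes, at 1.31 (SE 0.14), Tnfrsf13b, which encodes the receptor TACI, at 0.69 (SE 0.10), and Prdm1, which encodes the master regulator Blimp-1, at 0.60 (SE 0.08), each with a limma adjusted p of 2.42e-05 or less. Irf4, a transcription factor of plasma cells, rose by 0.30 (SE 0.08, limma adjusted p = 0.0075), and Derl3, of endoplasmic reticulum quality control, fell by 0.72 (SE 0.17, limma adjusted p = 0.00262). The median over the 17 was 0.15, below the 0.25 of all genes. Markers of other cells moved in the same livers. B cell markers with a row (7 of the 16 listed, with none for Ms4a1 and Pax5) averaged 1.40 to 1.84 in sham and 2.65 to 3.03 in SBR vehicle livers, with a median change of 0.50. Most of the shift of this mean came from Ly6d, and without it the other 6 averaged 1.41 to 1.82 in sham and 1.91 to 2.24 in SBR vehicle livers. Of all 7, 5 rose, led by Ly6d at 5.84 (SE 0.34), a surface protein that epithelial cells can make as well, while Cd22, a B cell receptor, rose by 0.65 (SE 0.10) and Cd79a, part of the B cell antigen receptor, stood at 0.21 (SE 0.13, limma adjusted p = 0.206). Of 6 T cell markers 3 rose, and of 8 macrophage markers 5 rose and 1 fell, to be read against the same 37.4% of all genes. Of 10 epithelial markers 9 rose and their mean went from between 5.50 and 6.09 in sham to between 6.76 and 7.62 in SBR vehicle livers. The part of these cells in the antibody genes' change was not tested.

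Some genes for signals that reach B cells and plasma cells also rose in the liver after SBR, where 37.4% of all genes did. Of 7 tested genes of IgA induction and plasma cell survival, 5 rose, among them Tgfb1, the growth factor of class switching to IgA, by 0.79 (SE 0.13), its receptor gene Tgfbr2 by 1.00 (SE 0.13) and Tnfsf13b, which encodes the survival factor BAFF, by 0.56 (SE 0.08, limma adjusted p = 1.84e-05). The median over the 7 was 0.42. Of 11 homing genes, 4 rose and 1 fell, with a median of 0.17, below the 0.25 of all genes. Cxcr4, the receptor that holds plasma cells in their niches, rose by 1.79 (SE 0.22), the adhesion gene Vcam1 by 1.35 (SE 0.19), and the integrin genes Itga4 by 0.69 (SE 0.12) and Itgb7 by 0.65 (SE 0.13), whereas Cxcl13, a chemokine for B cells, fell by 1.53 (SE 0.25, limma adjusted p = 8.74e-05).

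Liver Pigr went the other way from the antibody genes. It was listed at 10.70, 10.39, 10.87, 11.05 and 10.82 in sham, between 9.67 and 10.49 with a median of 10.18 in SBR vehicle, and at 10.69, 10.91, 10.95, 10.52 and 10.59 in SBR WUSTL0717 libraries. Every SBR WUSTL0717 liver was above every SBR vehicle liver, and sham and SBR vehicle overlapped only through the lowest sham library. Pigr fell after SBR by 0.60 (SE 0.14, limma adjusted p = 0.00214, exact permutation p = 0.00155), or by 0.85 relative to the median of all genes. With WUSTL0717 it rose by 0.57 (SE 0.14, limma adjusted p = 0.0294, exact permutation p = 0.00155). Pigr was the only 1 of 7 members called in the drug comparison, in which 4.1% of all liver genes were called. The call was lost without SBR WUSTL0717 1 (limma adjusted p = 0.0736), SBR WUSTL0717 2 (0.0994), SBR WUSTL0717 3 (0.113) or SBR vehicle 6 (0.0537), and with an unmoderated two-sample test (adjusted p = 0.11), by which none of all genes was called. Without SBR vehicle 2, the lowest of its group, Pigr changed by -0.53 after SBR (limma adjusted p = 0.00129) and by 0.49 with the drug (0.0218).

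Markers of other liver cells moved with Pigr or against it. The mean of 8 hepatocyte markers was 8.64 in sham, 8.29 in SBR vehicle and 8.61 in SBR WUSTL0717 livers. After SBR 7 of the 8 had lower means, 2 fell and the median was -0.33, and with the drug 7 had higher means, none was called and the median was 0.28. Across the 18 liver libraries Pigr correlated with the hepatocyte mean at 0.79 (Pearson's r) and with the mean of 10 epithelial markers at -0.58, a description over libraries that share groups. The epithelial mean went from 5.78 in sham to 7.25 in SBR vehicle and stood at 6.69 in SBR WUSTL0717 livers. Pigr minus the epithelial mean was 4.99 ± 0.11 (SD, n = 5) in sham, 2.91 ± 0.24 (SD, n = 8) in SBR vehicle and 4.04 ± 0.58 (SD, n = 5) in SBR WUSTL0717 livers. Most of the gap of 2.07 between sham and SBR vehicle is the rise of the markers and not the fall of Pigr. The part of hepatocyte or epithelial content in the change of Pigr was not tested. Of 12 tested genes that induce Pigr or serve transcytosis, 9 rose after SBR, against 37.4% of all liver genes, and none fell. Among them, the NF-kB gene Relb rose by 1.66 (SE 0.15) and Nfkb1 by 0.68 (SE 0.11), the cytokine gene Tnf by 1.17 (SE 0.19), the interleukin-17 receptor gene Il17ra by 0.49 (SE 0.11) and the vesicle gene Rab25 by 1.67 (SE 0.18), each with a limma adjusted p of 0.00152 or less. With WUSTL0717, Rab25 fell by 0.87 (SE 0.18, limma adjusted p = 0.0128) and Relb by 0.60 (SE 0.15, limma adjusted p = 0.0299). Rab25 and Relb thus moved opposite to Pigr in both comparisons.

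**Figure D2:**
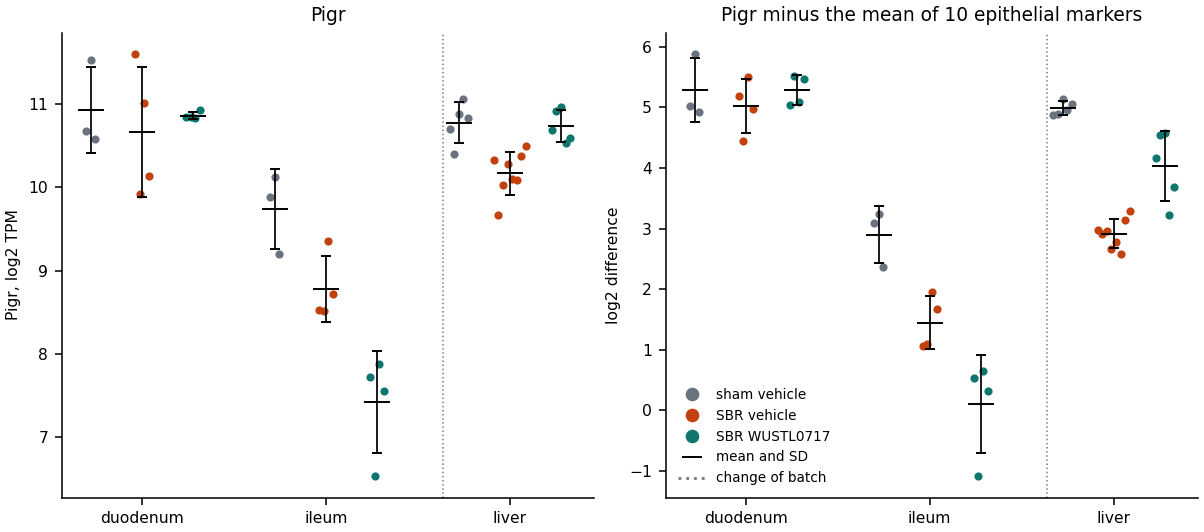
Left, Pigr (y axis, log2 TPM) in each library by tissue and group; right, the same values minus the mean log2 TPM of 10 epithelial markers in that library (y axis, log2 difference), with group means as bars, SD as whiskers and the change of batch as a dotted line; the y axes do not start at 0. In the liver the difference went from 4.99 in sham to 2.91 in SBR vehicle and 4.04 with the drug while the markers themselves went from 5.78 to 7.25 and 6.69, and in the ileum it went from 2.90 through 1.45 to 0.10.

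With WUSTL0717 after SBR, Igha, Igkc and Jchain had lower means in the liver and Ighm a higher one. Igha changed by -0.68 (SE 0.23, limma adjusted p = 0.109), Igkc by -0.75 (SE 0.29, limma adjusted p = 0.171) and Jchain by -0.55 (SE 0.23, limma adjusted p = 0.207), and none was called. Without liver SBR vehicle 2 all of them were called, at -0.80 for Igha (limma adjusted p = 0.0312), -0.92 for Igkc (0.0384) and -0.70 for Jchain (0.0264), so that 4 members were called, beside 5.87% of all genes. Igha was also called after centring (-0.67, limma adjusted p = 0.0238), when 19.7% of all genes were. Among other constant genes Iglc1 fell by 1.30 (SE 0.26, limma adjusted p = 0.0125) and Iglc3 by 0.91 (SE 0.23, limma adjusted p = 0.0294), and all 7 tested had lower means. Of the 168 segments 151 had lower means and 1 fell. Ighm was at 3.93, 5.11, 5.64, 4.57 and 3.74 in the drug group, wider than the SBR vehicle range, with a change of 0.22 (SE 0.24, limma adjusted p = 0.729). Unadjusted p-values under 0.05 were found for 4 of 7 members against 17.2% of all genes, and groups that did not overlap for 1 member against 1.54%. TACI's gene Tnfrsf13b fell by 0.37 (SE 0.10, limma adjusted p = 0.0459) and BAFF's gene Tnfsf13b by 0.35 (SE 0.08, limma adjusted p = 0.0212). Epithelial markers moved with these genes: 4 of 10 fell, among them Vil1 by 0.69 (SE 0.15) and Epcam by 1.10 (SE 0.24), and the part of the epithelium in this was not tested.

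**Figure D3:**
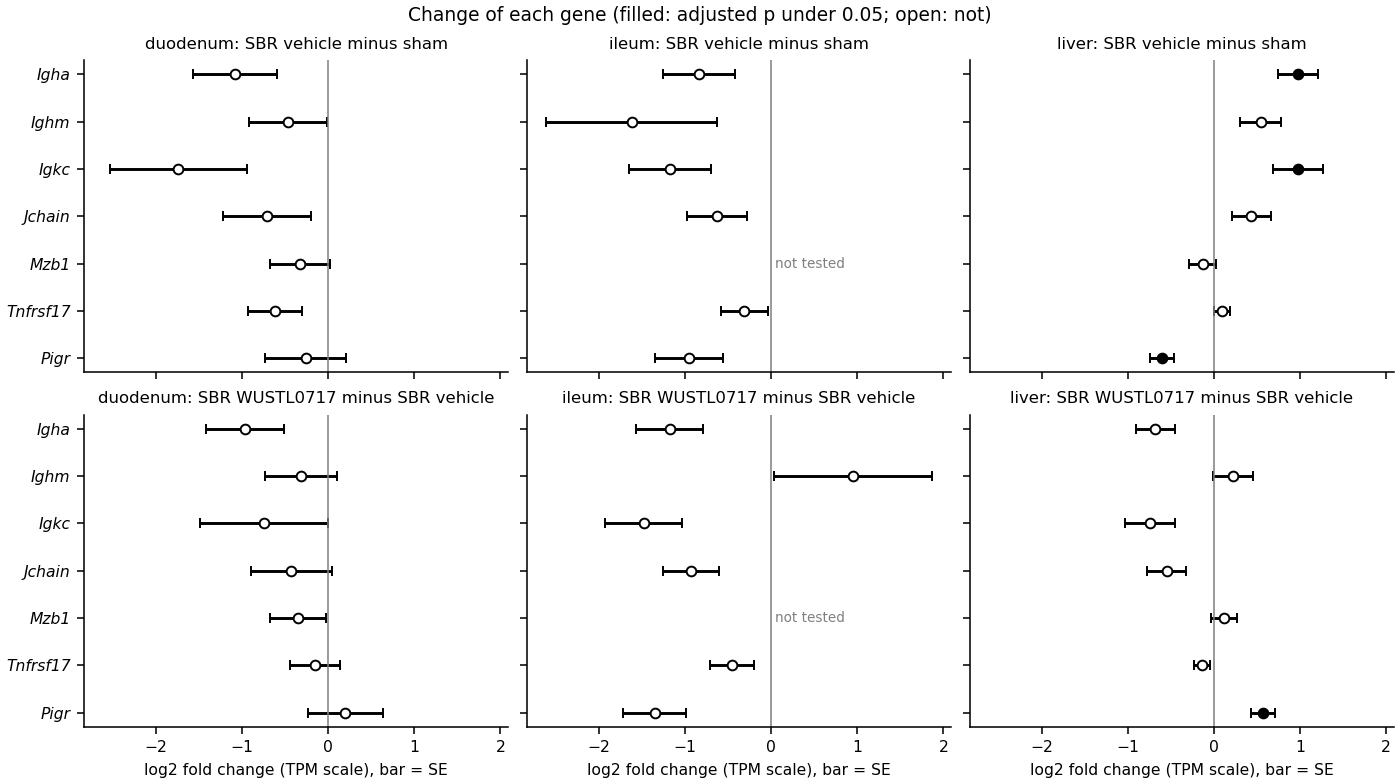
Difference of each of the 7 genes between groups (x axis, log2 fold change on the TPM scale, bar 1 SE) in the duodenum, ileum and liver, for SBR vehicle against sham (top) and SBR WUSTL0717 against SBR vehicle (bottom); filled points had an adjusted p under 0.05. Filled points stand in the liver panels alone, for Igha, Igkc and Pigr after SBR and for Pigr with the drug, and Mzb1 was under the level filter in the ileum.

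In the post-anastomotic ileum, Igha, Igkc, Jchain, Pigr and Tnfrsf17 had their lowest means in the drug group. Ighm (4.65 against 3.70) and Mzb1 (0.83 against 0.76) had higher means in the drug group than in SBR vehicle. Igha was listed at 8.37, 7.70 and 6.96 in sham, at 6.92, 6.57, 7.38 and 6.49 in SBR vehicle and at 5.52, 4.90, 6.45 and 5.76 in SBR WUSTL0717 libraries. Igkc stood at 10.35, 9.70 and 8.58, then 8.47, 7.68, 9.21 and 8.12, then 6.76, 6.46, 7.62 and 6.71 in the same order of groups. The drug libraries lay under all SBR vehicle libraries for both genes, while sham and SBR vehicle overlapped. Jchain was listed at 6.03, 5.28 and 4.44 in sham, at 4.75, 4.25, 4.96 and 4.52 in SBR vehicle and at 3.69, 3.41, 4.02 and 3.61 in SBR WUSTL0717 libraries. Pigr was listed at 9.88, 10.12 and 9.20, then 8.53, 8.51, 9.36 and 8.71, then 7.73, 6.53, 7.88 and 7.56. They too separated drug from vehicle without overlap.

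Against SBR vehicle, the drug group differed in the ileum by -1.35 for Pigr (SE 0.36, unadjusted p = 0.00293, limma adjusted p = 0.445), -1.48 for Igkc (SE 0.44, unadjusted p = 0.00579, limma adjusted p = 0.501), -1.18 for Igha (SE 0.39, unadjusted p = 0.0107, limma adjusted p = 0.566) and -0.94 for Jchain (SE 0.33, unadjusted p = 0.014, limma adjusted p = 0.583). The exact permutation p was 0.0286 for each, the smallest that 4 against 4 libraries allow. None of the 6 members tested was called, as were 0.0697% of all genes (11 of 15772). At an unadjusted p under 0.05 stood 4 of 6 members against 6.87% of all genes, and 4 had groups that did not overlap against 3.83%. The 6 members had a median change of -1.06 and all genes one of 0.00. Tnfrsf17 changed by -0.46 (SE 0.25, limma adjusted p = 0.822). Ileum SBR WUSTL0717 2, the library with high hepatocyte markers, had the lowest Igha, Igkc, Jchain and Pigr. Without it the differences were -1.06 for Pigr, -1.34 for Igkc, -0.93 for Igha and -0.85 for Jchain, and none was called.

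No antibody segment of the ileum was called with the drug. Of 166 tested segments 128 had a lower mean in the drug group, 38 had a higher one and 24 had an unadjusted p under 0.05 (6.87% of all genes did), with a median of -0.61 against 0.00 over all genes. Of 7 other constant genes 6 had lower means (median -0.83). Of 17 plasma cell program genes 13 had lower means (median -0.38), and Tent5c, which stabilizes antibody messages in plasma cells, stood at -0.80 (SE 0.26, unadjusted p = 0.0103, limma adjusted p = 0.561). Tent5c was among the genes most like Igha over the intestinal libraries, so its value is not separate from that of Igha. B cell markers had a median of 0.07 and T cell markers one of -0.23, with none called. In the group of Pigr inducers none of 12 was called. Irf1, an interferon-induced factor singled out after its values were seen, stood at -1.77 (SE 0.51, unadjusted p = 0.00454, limma adjusted p = 0.484). The mean of the epithelial markers was 7.33 in SBR vehicle and 7.32 in SBR WUSTL0717 libraries. Pigr minus these markers was 1.45 ± 0.43 (SD, n = 4) in SBR vehicle and 0.10 ± 0.81 (SD, n = 4) in SBR WUSTL0717 libraries, a difference of -1.35 with no overlap (exact permutation p = 0.0286, 0.0429 adjusted over 6 tests), and of -0.95 without SBR WUSTL0717 2. The exact p rose to 0.0571 without SBR vehicle 3 or SBR vehicle 4. The part of epithelial content in the lower Pigr was not tested.

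SBR alone gave lower means of the same genes in the ileum. The changes from sham were -1.17 for Igkc (SE 0.48, limma adjusted p = 0.488), -0.96 for Pigr (SE 0.39, limma adjusted p = 0.499), -0.84 for Igha (SE 0.42, limma adjusted p = 0.659), -0.63 for Jchain (SE 0.35, limma adjusted p = 0.734) and -0.31 for Tnfrsf17 (SE 0.27, limma adjusted p = 0.912). None of 6 members was called, against 0.349% of all genes. Igkc and Pigr, 2 of 6, had an unadjusted p under 0.05 against 8.46% of all genes, and no member had groups that did not overlap against 9.5%. Their median was -0.90 against 0.07 over all genes. Sham libraries spread widely, from 4.44 to 6.03 for Jchain. Without ileum sham 1 the change was -0.24 for Jchain, -0.49 for Igha, -0.77 for Igkc and -0.11 for Tnfrsf17, and without ileum sham 3 it was -1.03 for Jchain. Of 166 segments 133 had lower means, with none called. Sdc1, which encodes the plasma cell surface protein CD138 and is also made by epithelium, rose by 2.11 (SE 0.33, limma adjusted p = 0.0181), the 1 call among 17 plasma cell program genes. The ileal genes Fabp6 (2.05, SE 0.29) and Slc10a2 (2.02, SE 0.30), of bile acid uptake, rose too, and epithelial markers averaged 6.78 to 6.88 in sham and 7.05 to 7.46 in SBR vehicle libraries. The part of regional or epithelial content in these values was not tested. Pigr minus the epithelial markers stood 1.45 lower after SBR (2.90 ± 0.47, n = 3 against 1.45 ± 0.43, n = 4, exact permutation p = 0.0286, 0.0429 adjusted), a call that no fit with a library left out can reach, as the smallest p is then 0.0667. Taken relative to the median of all genes instead, the difference was -1.03 (exact permutation p = 0.0857).

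In the ileum, Ighm was highest in the libraries with the most B cell markers, which were 1 in each group. It was listed at 3.85, 6.79 and 5.32 in sham, at 2.95, 2.78, 6.40 and 2.67 in SBR vehicle and at 4.74, 3.29, 6.45 and 4.12 in SBR WUSTL0717 libraries. The highest library of each group, sham 2, SBR vehicle 3 and SBR WUSTL0717 3, also had the highest B cell marker mean of its group, at 4.02, 4.11 and 3.78 against 1.16 to 2.74 in the other ileal libraries. The B cell markers were Cd79a, Cd79b, Cd22, Blk, Spib, Fcrla and Ly6d. Ighm differed by -1.62 after SBR (SE 0.99, limma adjusted p = 0.782) and by 0.95 with the drug (SE 0.92, limma adjusted p = 0.936). Without the 3 libraries, an alternative chosen after seeing the data, these were -1.78 and 1.25. Single libraries moved Ighm further, to -2.52 after SBR and 1.85 with the drug without SBR vehicle 3, to -0.89 after SBR without sham 2 and to 0.35 with the drug without SBR WUSTL0717 3. Without the 3 libraries Igha differed by -1.01 after SBR and -1.27 with the drug, and neither was called. The part of B cell content in Igha was not tested. Mzb1, under the level filter in the ileum and thus not tested, was at 1.59, 1.49 and 0.67 in sham, 0.83, 0.55, 1.48 and 0.17 in SBR vehicle and 0.68, 0.59, 1.44 and 0.60 in SBR WUSTL0717 libraries. Among SBR mice it too was highest in SBR vehicle 3 and SBR WUSTL0717 3.

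**Figure D4:**
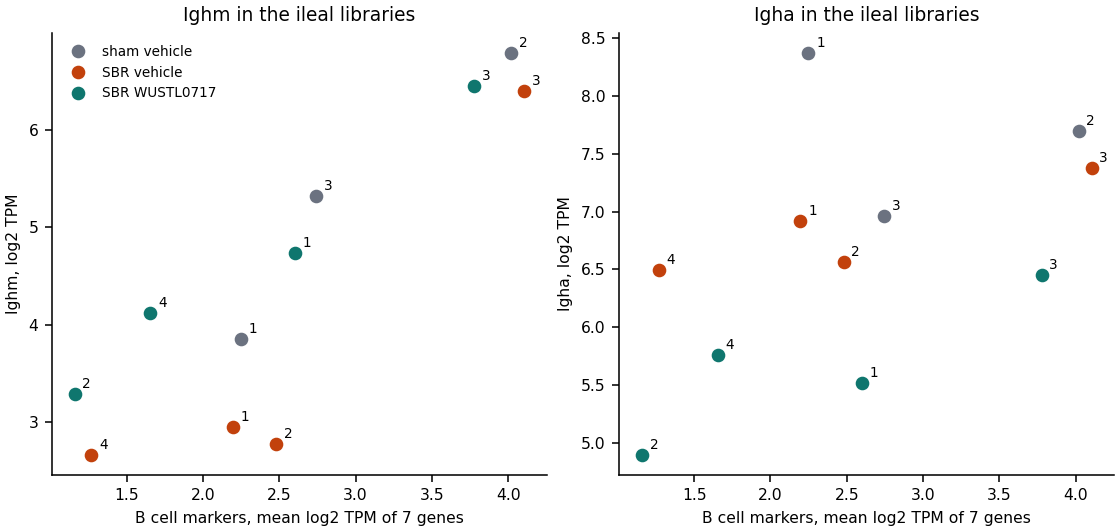
Ighm (left) and Igha (right) in each of the 11 ileal libraries (y axes, log2 TPM, not starting at 0) against the mean log2 TPM of 7 B cell markers (x axis); colour gives the group and the number beside a point its library. The 3 libraries with B cell means of 3.78 to 4.11 held the highest Ighm, 6.40 to 6.79, one in each group, whereas Igha was lower in every drug library than in any SBR vehicle library.

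In the duodenum the order of the groups was alike for Igha, but no gene of the tissue was called after SBR (0% of 15093 genes by limma, 16.1% had an unadjusted p under 0.05). Igha was listed at 8.66, 9.04 and 9.20 in sham, at 8.57, 7.77, 8.12 and 7.05 in SBR vehicle and at 7.07, 7.72, 6.27 and 6.60 in SBR WUSTL0717 libraries. Sham lay above both other groups, which overlapped each other. Igkc was listed at 10.18, 11.71 and 10.15, then 9.81, 9.28, 9.14 and 7.53, then 7.94, 10.11, 8.21 and 6.53. The change after SBR was -1.09 for Igha (SE 0.49, unadjusted p = 0.0451, limma adjusted p = 0.304), -1.74 for Igkc (SE 0.80, unadjusted p = 0.0499, limma adjusted p = 0.31), -0.71 for Jchain (SE 0.51, limma adjusted p = 0.469) and -0.62 for Tnfrsf17 (SE 0.31, limma adjusted p = 0.336). All 7 members had lower means, 2 had an unadjusted p under 0.05, and 3 (Igha, Igkc and Tnfrsf17) had groups that did not overlap, against 9.65% of all genes (exact permutation p = 0.0571 for each of the 3). Their median was -0.62, and the median of all genes was itself -0.36. With library weights Igha (-1.42, limma adjusted p = 0.0461) and Igkc (-2.65, limma adjusted p = 0.0392) were called, as were 16.5% of all genes. Of 167 segments 145 had lower means, and of 17 plasma cell program genes 16 had. Markers of other cells differed in the same libraries, with none called. All 7 macrophage markers tested had lower means (median -1.45, 3 with an unadjusted p under 0.05), and the mean of the full list was 5.36 in sham and 4.11 in SBR vehicle. All 5 B cell markers (median -0.72) and all 4 markers of M cells, an epithelial type, (median -0.87) also had lower means, whereas T cell markers had a median of -0.14, above that of all genes, with 5 of 6 lower. The part of these cells in the lower antibody genes was not tested.

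Duodenal Tnfrsf17 was at 2.19, 2.22 and 2.11 in sham, at 1.80, 1.63, 1.95 and 0.82 in SBR vehicle and at 1.13, 1.84, 1.24 and 1.39 in SBR WUSTL0717 libraries. Jchain ranged from 5.26 to 6.32, from 4.41 to 5.55 and from 3.93 to 5.82 in the same groups, and Ighm from 3.36 to 3.56, from 1.78 to 3.59 and from 2.05 to 3.02. SBR vehicle 4 was the lowest of its group for Igha, Igkc, Jchain, Ighm, Mzb1 and Tnfrsf17, and without it the change after SBR was -0.38 for Tnfrsf17, -0.06 for Ighm and -0.15 for Mzb1. The falls of Igha, Igkc and Jchain after SBR were also smaller without this library. With the drug, Igha changed by -0.97 (SE 0.45, unadjusted p = 0.0529, limma adjusted p = 0.95), Igkc by -0.75 (SE 0.74) and Jchain by -0.43 (SE 0.47). The values of Igkc and Jchain moved with single libraries, to -1.38 and -0.81 without SBR WUSTL0717 2 and to -0.19 and -0.19 without SBR WUSTL0717 4. No member was called (0.258% of all genes were), none had an unadjusted p under 0.05 (5.31% of all genes), and none had groups that did not overlap (3.15%). Pigr was at 10.68, 11.52 and 10.58 in sham, between 9.92 and 11.60 with a median of 10.57 in SBR vehicle and within 10.83 to 10.92 in all 4 SBR WUSTL0717 libraries. It changed by -0.26 after SBR (SE 0.47), a value that turned to 0.14 after centring, and by 0.20 with the drug (SE 0.44). Aldh1a1, which makes retinoic acid, a signal for IgA switching, rose by 3.03 with the drug (SE 0.51, limma adjusted p = 0.0284), the 1 call among 7 genes of IgA induction. Pancreas markers moved among these libraries, from 3.35 to 7.15 in sham, 1.70 to 6.56 in SBR vehicle and 4.26 to 7.35 in SBR WUSTL0717, and their part was not tested.

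Between the gut regions, Pigr and Igha had lower means in the ileum in all 3 groups, called in the SBR groups. The libraries of the regions were treated as independent, and whether they came from the same mice is not given in the labels. Pigr differed between ileum and duodenum by -1.19 in sham (SE 0.48, limma adjusted p = 0.0974), by -1.88 in SBR vehicle (SE 0.42, limma adjusted p = 0.000918) and by -3.43 in SBR WUSTL0717 mice (SE 0.42, limma adjusted p = 2.07e-06), or 10.8-fold in the last. In order of mean level, Pigr ran from 10.92 in duodenum sham through 10.86 in duodenum SBR WUSTL0717, 10.66 in duodenum SBR vehicle, 9.73 in ileum sham and 8.78 in ileum SBR vehicle to 7.42 in ileum SBR WUSTL0717, and of neighbours in this order only the last pair did not overlap. Igha differed by -1.29 in sham (limma adjusted p = 0.0823), -1.04 in SBR vehicle (limma adjusted p = 0.0431) and -1.25 in SBR WUSTL0717 mice (limma adjusted p = 0.0178). In SBR WUSTL0717 mice Jchain was also lower in the ileum (-0.98, limma adjusted p = 0.0453) and Ighm higher (1.96, limma adjusted p = 0.0315). Ighm differed by 1.84 in sham (limma adjusted p = 0.149) and by 0.69 in SBR vehicle mice (limma adjusted p = 0.44), the latter turning to -0.24 after centring. Centring also took the Ighm difference of SBR WUSTL0717 mice to 1.07, with the call lost (limma adjusted p = 0.291). Called were 0 of 7 members in sham against 14.6% of all genes, 2 in SBR vehicle against 56.9% and 4 in SBR WUSTL0717 against 55.9%. In sham 3 members had an unadjusted p under 0.05 by limma, against 31.5% of all genes. The median gene stood 0.52, 0.98 and 0.95 higher in the ileum in these groups, so the lower members lay against the general shift.

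The regional calls of Pigr held in all 8 fits with a library left out in each of the SBR groups, whereas the other regional calls lay near the threshold. In SBR vehicle mice the Igha call held only without ileum SBR vehicle 3 or duodenum SBR vehicle 4, and over the other 6 fits the difference ran from -1.08 to -0.81, the latter without duodenum SBR vehicle 1 (limma adjusted p = 0.117). In SBR WUSTL0717 mice the Igha call was lost without library 2 of either region (-1.001, limma adjusted p = 0.0713 for the ileum and -0.99, 0.0709 for the duodenum). The Ighm call was lost without ileum 1 (1.93, limma adjusted p = 0.0562), ileum 3 (1.36, 0.133), duodenum 2 (2.00, 0.0508) or duodenum 4 (1.75, 0.0815), and that of Jchain without ileum 1 (-0.98, limma adjusted p = 0.0728), ileum 2 (-0.89, 0.104), ileum 4 (-0.96, 0.0783), duodenum 2 (-0.60, 0.203) or duodenum 3 (-0.96, 0.0801). Several of these calls were thus lost while the difference stayed as large. Igkc, not called between regions in SBR WUSTL0717 mice (-1.31, limma adjusted p = 0.0865), was called without duodenum 4 (-1.86, 0.0198). For the difference of the SBR effect between the regions, limma called 0 members (0.0754% of all genes), and 0 had an unadjusted p under 0.05 (13.8% of all genes). For the effect of the drug also 0 were called (0.0251% of all genes), and 1 had an unadjusted p under 0.05 (3.33% of all genes): Pigr, whose drug effect stood 1.55 lower in the ileum (-1.55, SE 0.59, unadjusted p = 0.0156, limma adjusted p = 1).

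The genes most like the members across libraries differed between gut and liver. Pearson's r was taken over 22 intestinal libraries, with each region centred on its mean, and over 18 liver libraries, with the 7 members left out of the ranking, as a description, since libraries share groups and a batch. In the intestine Igha was most like Tmem154 (0.93), Igkj2 (0.93), Lax1 (0.92), Tent5c (0.92) and St6gal1 (0.91), and Jchain was most like Trp53inp1 (0.94), Ighj4 (0.88), Glipr1 (0.88), Ighv10-1 (0.88) and Tmem154 (0.87). Among the members, Jchain correlated with Igkc at 0.97 there, and Igha with Igkc at 0.91, with Jchain at 0.88 and with Ighm at 0.39. In the liver Igha was most like Iglc1 (0.93), Igkv1-110 (0.92), Gm5643 (0.90), Ighv1-80 (0.89) and Pou6f1 (0.87), and Jchain most like Ighg2b (0.91), Igkv1-110 (0.87), Igkv1-117 (0.86), Inhba (0.86) and 2310015A16Rik (0.83). Igkc correlated there with Jchain at 0.91 and with Igha at 0.88. Of the 50 genes most like Jchain, 19 in the intestine and 13 in the liver were immunoglobulin genes, and of those most like Igha 11 and 3 were.

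Pigr kept other company. In the intestine it was most like Parp14 (0.85), an interferon-induced gene, Gm5431 (0.85), Lyn (0.85), Ceacam10 (0.84) and Gm31497 (0.83), and it correlated with Igha at 0.70. In the liver it was most like Ldhd (0.97), Slc27a5 (0.96), which encodes a bile acid ligase of hepatocytes, Cyp2j5 (0.96), Haao (0.95) and Uroc1 (0.95), and it correlated with Igha at -0.38. Of the 50 genes most like Pigr, 1 in the intestine and 0 in the liver were immunoglobulin genes.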

How the data were processed

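Sequencing libraries depleted of ribosomal RNA were read in pairs, and per the labels and the study's methods the authors used STAR for alignment to GRCm38 and featureCounts for counting, then scaled with edgeR, computed TPM, took log2 and applied ComBat for batch. The deposited table holds these log2 TPM values, with no counts, so depth and the precision it gives are unknown; 0 columns of per-sample values were left unused. Groups came from the sample labels. The 7 genes, the 16 gene lists, the naming rule and the tests were chosen with earlier results of these data known. Named were all 7 members, genes of the lists that were called (at most 5 per list and comparison) and at most 3 others per list, the 3 joining or variable segments with the highest intestinal means, and the 5 genes most like Igha, Jchain and Pigr. Fits used limma 3.58.1 (R 4.3.3, variance trend) on genes averaging at least 1 log2 TPM, tested on simulated data, with the deposited values as they stood and no library left out. Permutation tests ran in Python 3.11.15 (numpy 2.4.6, pandas 2.3.3, matplotlib 3.10.9), with scipy 1.17.1 for the adjustment over the 6 tests of Pigr relative to epithelium. Alternatives were no filter or one at 3, a pseudocount of 5, centring on the median, an unmoderated test, library weights, a replicate block, the median of all genes as reference for Pigr, and leaving out each library. A further one, without 3 ileal libraries, was chosen after seeing the data.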

Additional observations from a re-analysis of the deposited data

Results flagged for a closer look

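Within groups of 4 to 10 libraries, a library was singled out where its gap to the nearest other was large for the range of the group (Dixon's test at 95%; of 49 groups tested, chance alone gives about 1 in 20, or 5%). Ighm in ileum SBR vehicle 3 stood at 6.40 with the next at 2.95, and Mzb1 in ileum SBR WUSTL0717 3 at 1.44 with the next at 0.68. Jchain in liver SBR vehicle 2 stood at 4.04, below the next at 4.99. Tnfrsf17 in liver sham vehicle 4 stood at 1.63 and in liver SBR WUSTL0717 3 at 1.47, in groups where most libraries shared the lowest value of 1.27. Pigr in duodenum SBR WUSTL0717 4 stood at 10.92, in a group whose other libraries lay within 10.83 and 10.84.

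Effects of opposite sign in separate tissues were singled out where every library of the first arm lay on the same side of the mean of the other. Igha after SBR was lower in the duodenum (-1.09) and the ileum (-0.84) and higher in the liver (0.97). Pigr with WUSTL0717 was lower in the ileum (-1.35) and higher in the liver (0.57). These differences between tissues were not tested, because gut and liver were corrected as separate batches.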

How the results depend on the processing

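Of 533 values of members under alternatives other than leaving out a library, 483 kept their direction and side of the threshold, 22 gained a call, 13 lost one and 15 turned sign; the causes were not tested. Members called with library weights, with the share of all genes called in the same fit, numbered 2 in the duodenum (16.5%) and 5 in the liver (65.8%) after SBR, 4 in the liver with the drug (17.7%), and between regions 4 in sham (34.8%) and 1 in SBR vehicle mice (67.6%). With centring they numbered 2 in the liver with the drug (19.7%) and, between regions, 3 in sham (12.7%) and 5 in SBR vehicle (31.1%). With the unmoderated test they numbered 0 in the liver with the drug (0%) and, between regions, 1 in SBR vehicle (41.4%) and 1 in SBR WUSTL0717 mice (45.5%). In SBR WUSTL0717 mice centring added regional calls of Igkc (-2.19, limma adjusted p = 0.0119) and Tnfrsf17 (-1.43, 0.000634), while that of Ighm was lost. Signs turned with centring for Mzb1 (0.071) and Pigr (0.14) in the duodenum after SBR, Tnfrsf17 (-0.21) in the liver after SBR, Ighm (-0.24) between regions in SBR vehicle mice, and Igha (-0.23), Jchain (-0.40) and Tnfrsf17 (-0.17) in the difference of SBR effects between regions. They turned with library weights for Ighm (0.045) and Tnfrsf17 (0.050) in the duodenum with the drug, Ighm (-0.21) and Mzb1 (-0.083) in the liver with the drug, Tnfrsf17 (0.084) between regions in SBR vehicle and Mzb1 (0.060) in SBR WUSTL0717 mice, and without the 3 ileal libraries for Ighm (-0.21) between regions in SBR vehicle mice and Jchain (-0.020) in the difference of SBR effects. With the median of all genes as reference, Pigr stood at 0.14 in the duodenum and -1.03 in the ileum after SBR.

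Same-numbered libraries did not all deviate together (correlations of deviations from -0.32 to 0.45, and over 0.1 in 5 of 11 pairs of duodenum and ileum), so the numbers were not used to pair libraries in the main tests; whether both regions came from the same mice was not settled by this. With a replicate block the members called between regions in SBR vehicle mice numbered 1 (59.1% of all genes), Igha being lost (limma adjusted p = 0.0741), and Igkc in the liver after SBR stood at 0.72 (limma adjusted p = 0.146).

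With each library left out in turn, members called numbered 3 to 5 in the liver after SBR (34 to 56.7% of all genes), 0 to 4 in the liver with the drug (0.585 to 6.76%), 1 to 2 between regions in SBR vehicle (47.6 to 61.2%) and 1 to 4 in SBR WUSTL0717 mice (46.5 to 57.0%). Values that turned sign in at least 1 of these fits ranged from -0.58 to 0.034 for Pigr in the duodenum after SBR and from -0.053 to 0.51 with the drug, from -0.041 to 0.43 for Ighm in the liver with the drug, and, between regions, from -0.45 to 0.012 for Mzb1 in sham, from -0.21 to 1.03 for Ighm in SBR vehicle and from -0.22 to 0.19 for Mzb1 in SBR WUSTL0717 mice. In the difference of SBR effects between regions they ranged from -0.11 to 0.60 for Igha, from -0.32 to 0.47 for Jchain and from -0.45 to 0.035 for Mzb1, and in that of drug effects from -0.48 to 0.063 for Igha. Pigr relative to epithelial markers ranged from -0.43 to 0.046 in the duodenum after SBR, from -1.72 to -1.28 in the ileum after SBR and from -1.53 to -0.95 in the ileum with the drug. The lowest values, those of Mzb1 and Tnfrsf17, are the least certain, as read depth is unknown.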
